A study of Mus musculus with 12 samples.

Results

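Glp1r, Ndst4, Clic6, Prokr2, Trpc4 and Rxrg are 6 mouse genes for receptors, a channel, a chloride channel family protein, a sulfotransferase and a nuclear receptor. They were chosen because their levels in infralimbic cortex stood above those in prelimbic cortex in these libraries. They are 6 of the 55421 genes in the count table, and all 6 were among the 20015 genes with enough counts to be tested. PolyA RNA was sequenced from brain tissue of wild type male C57BL/6 mice aged 10 to 12 weeks. All mice, drug and saline groups alike, had undergone fear training, in which a tone ended together with a 0.7 mA foot shock 3 times, and tissue was taken 2 h later. The 4 groups of 3 libraries each were infralimbic (IL) cortex after dexmedetomidine, IL cortex after saline, prelimbic (PL) cortex after dexmedetomidine and PL cortex after saline. Dexmedetomidine, called Dex in the labels and below, is a sedative that activates alpha2 adrenergic receptors. It was injected into the peritoneum at a dose of 40 µg per kg (10 ml per kg), and the saline mice received the same volume. The regions are those in the sample titles, whereas the extraction protocol names prelimbic tissue for every sample. The labels do not say whether libraries of a group came from separate mice or from pooled mice, so p-values measure only the spread between these samples.

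IL and PL are neighbouring fields of the medial prefrontal cortex, with PL above IL, and both take part in fear memory and its extinction. Glp1r encodes the receptor for glucagon-like peptide 1, a hormone and hindbrain neuropeptide that raises cyclic AMP. Prokr2 encodes a Gq-coupled receptor for prokineticins, secreted peptides that act in olfactory bulb development and in circadian output. Trpc4 encodes a cation channel that opens downstream of Gq-coupled receptors and is strongly expressed in the lateral septum of rodents. Ndst4 encodes an enzyme that replaces acetyl groups with sulfate on heparan sulfate, the cell surface sugar chain that binds growth factors. Clic6 encodes a member of the chloride intracellular channel family, and Rxrg encodes retinoid X receptor gamma, a nuclear receptor that pairs with retinoic acid and thyroid hormone receptors and is abundant in striatum.

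In GRCm38, the build of the count table, Glp1r (ENSMUSG00000024027) lies on chromosome 17 from 30901817 to 30940791 on the plus strand. Prokr2 (ENSMUSG00000050558) lies on chromosome 2 from 132337733 to 132385447 on the minus strand. Trpc4 (ENSMUSG00000027748) lies on chromosome 3 from 54156035 to 54318471, and Ndst4 (ENSMUSG00000027971) lies on the same chromosome from 125404076 to 125728899, both on the plus strand. Clic6 (ENSMUSG00000022949) lies on chromosome 16 from 92485736 to 92541243 and Rxrg (ENSMUSG00000015843) on chromosome 1 from 167598384 to 167639623, both on the plus strand. All are annotated as protein coding, and no exon base of them is shared with another annotated gene. The RefSeq promoter table for GRCm38.p6 matched 4 of the 6 genes. The 200 bases that run from 250 to 51 before the RefSeq start are printed here so that genes with a shared regional difference can be read side by side. Capitals mark a GC box (GGGCGG), a nuclear receptor half-site (AGGTCA) or a TATA box (TATAAA), each searched on both strands. For Rxrg the upstream of the 2 listed starts is shown.
Glp1r, chr17:30901617-30901816, plus strand: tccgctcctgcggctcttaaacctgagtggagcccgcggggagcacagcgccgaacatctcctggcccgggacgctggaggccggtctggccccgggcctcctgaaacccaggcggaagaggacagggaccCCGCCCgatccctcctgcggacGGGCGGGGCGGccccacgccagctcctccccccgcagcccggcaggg
Prokr2, chr2:132385498-132385697, minus strand: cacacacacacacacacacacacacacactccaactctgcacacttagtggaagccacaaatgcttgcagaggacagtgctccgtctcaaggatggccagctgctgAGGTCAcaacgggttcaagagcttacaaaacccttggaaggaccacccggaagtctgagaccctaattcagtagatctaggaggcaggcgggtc
Trpc4, chr3:54155807-54156006, plus strand: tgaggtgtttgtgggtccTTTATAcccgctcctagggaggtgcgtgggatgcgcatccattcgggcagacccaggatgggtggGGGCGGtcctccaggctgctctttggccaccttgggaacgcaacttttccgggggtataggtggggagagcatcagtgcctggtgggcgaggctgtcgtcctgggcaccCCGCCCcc
Rxrg, chr1:167598112-167598311, plus strand: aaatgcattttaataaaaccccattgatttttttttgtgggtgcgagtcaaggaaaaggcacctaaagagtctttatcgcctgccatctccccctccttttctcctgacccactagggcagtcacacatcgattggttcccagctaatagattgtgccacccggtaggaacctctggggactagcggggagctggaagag

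No motif was held by all 4 windows. The window of Glp1r was 75.0% G and C and held the GC box 3 times, 2 of them overlapping. The window of Trpc4 held 2 GC boxes and 1 TATA box, and that of Prokr2 held 1 half-site. The printed Rxrg window held none of the 3 letter strings, while that of the other listed start, inside the counted gene, held 1 half-site. Among all 32851 RefSeq windows of this length, 24.6% held a GC box, 11.4% a half-site and 9.1% a TATA box, and the median share of G and C was 51.5%. A match is a description of the letters, not evidence of a binding site.

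Total counts per library were 5419187 to 10874464 in IL Dex, 10603069 to 16530596 in IL saline, 6853832 to 7912150 in PL Dex and 6867249 to 8847876 in PL saline. PL saline library 1 stood apart from the other PL saline libraries in several of these genes. It held 54.8 CPM of Ndst4 (CPM is the read count scaled to library size, here by the TMM method of edgeR), which was 16.6 times the mean of the other 2 PL saline libraries, and 8.2 CPM of Clic6, which was 17.2 times their mean. For Glp1r the ratio was 3.15, for Rxrg 1.57, for Trpc4 1.2 and for Prokr2 0.722. In the same library all 12 markers of striatal medium spiny neurons and 6 of 7 of oligodendrocytes had their highest PL saline level. So did Zic1, Nts, Dgkk, Esr1 and Six3 among the 10 markers of the lateral septum. The summed striatal level was 939 CPM in it, against 332 and 344 CPM in the other PL saline libraries. That of the 7 olfactory and piriform cortex markers was 143 CPM in it, against 147 and 157 CPM, and was thus not raised. The regional fold changes in saline mice and the Dex fold changes in PL are therefore given with and without this library.

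**Figure D1:**
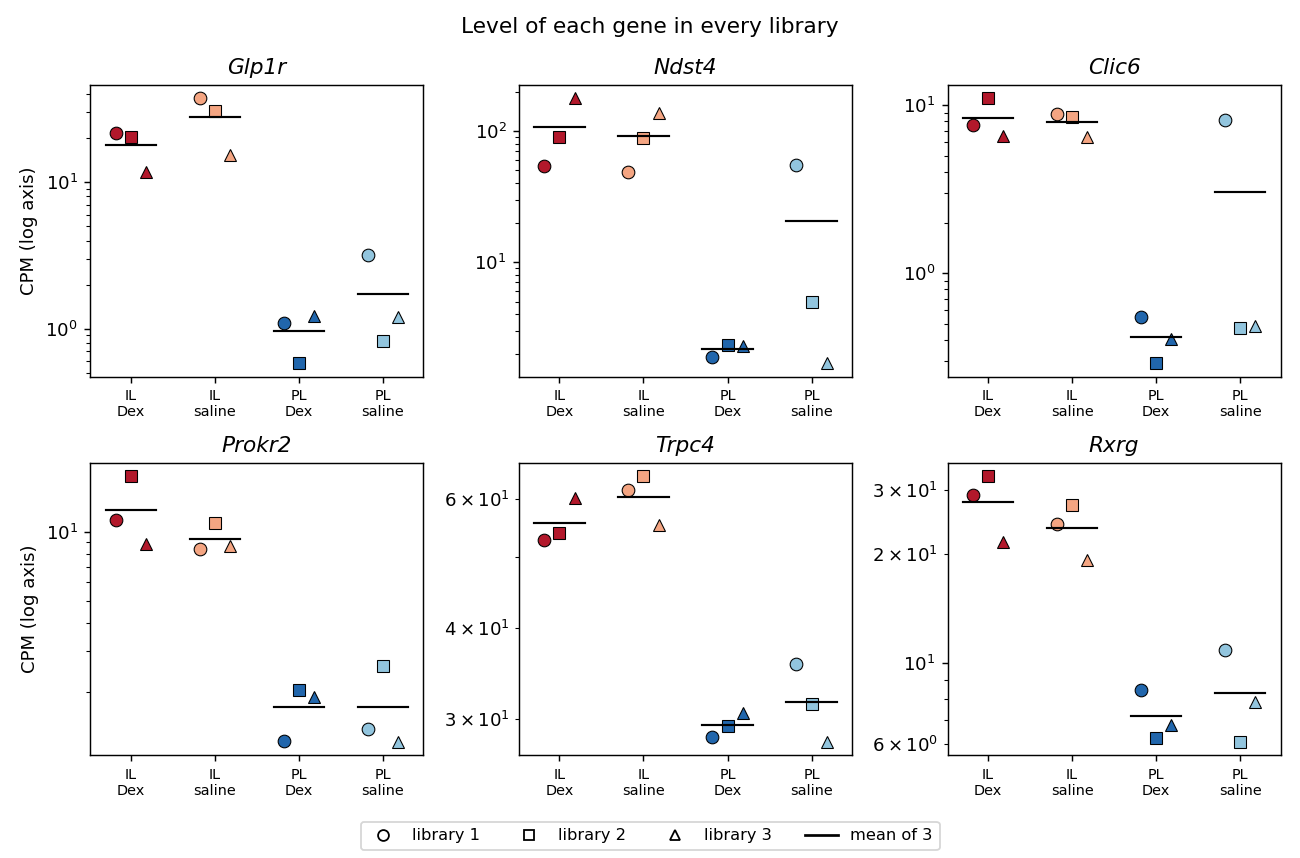
CPM of the 6 genes in each of the 12 libraries (log axis), with marker shapes for the library number and a bar for the mean of 3 libraries. All IL libraries lie above all PL libraries for Glp1r, Prokr2, Trpc4 and Rxrg, whereas PL saline library 1 reaches the IL range for Ndst4 (54.8 CPM) and Clic6 (8.2 CPM).

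Among the receptors, Glp1r had the larger regional difference. Its level was 21.7, 20.3 and 11.8 CPM in IL Dex, against 1.09, 0.581 and 1.22 CPM in PL Dex. In saline mice it was 37.5, 30.7 and 15.3 CPM in IL, against 3.19, 0.82 and 1.21 CPM in PL. Under each treatment every IL library lay above every PL library, and library 3 was the lowest IL library. The PL values rest on 4 to 21 counts per library, so that the pooled PL Dex level of 0.971 CPM had an exact Poisson interval, which covers counting error only, of 0.601 to 1.48 CPM at 95%. The fitted log2 fold change of IL over PL was 4.17 (SE 0.615) in Dex mice and 4.06 (SE 0.496) in saline mice, which is 18-fold and 16.7-fold. Without PL saline library 1 the saline value was 4.76 on the log2 scale. As the 6 genes were chosen on this difference, no p is given for it.

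Prokr2 had a low level in every PL library. Its level was 11.2, 17.4 and 8.85 CPM in IL Dex, against 1.22, 2.03 and 1.9 CPM in PL Dex. In saline mice IL had 8.37, 10.9 and 8.69 CPM, against 1.37, 2.58 and 1.21 CPM in PL. The regions did not overlap under either treatment, and library 2 was the highest of each of the 4 groups. The log2 fold change of IL over PL was 2.84 (SE 0.347) in Dex mice and 2.41 (SE 0.336) in saline mice, and 2.29 in saline mice without PL saline library 1.

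The channel gene Trpc4 had the smallest regional difference and the least spread. IL Dex libraries had 52.7, 54 and 60.3 CPM, against 28.3, 29.3 and 30.5 CPM in PL Dex. IL saline libraries had 61.8, 64.5 and 55.3 CPM, against 35.7, 31.4 and 27.9 CPM in PL saline. The lowest IL library lay well above the highest PL library, and the coefficient of variation within groups was 3.75% to 12.3%. The log2 fold change of IL over PL was 0.93 (SE 0.123) in Dex mice and 0.94 (SE 0.12) in saline mice, close to a doubling under each treatment, and 1.03 in saline mice without PL saline library 1.

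The nuclear receptor gene Rxrg was between these. Its level was 29, 32.7 and 21.6 CPM in IL Dex, against 8.43, 6.24 and 6.78 CPM in PL Dex. In saline mice it was 24.2, 27.3 and 19.3 CPM in IL, against 10.9, 6.09 and 7.85 CPM in PL. Library 2 was the highest and library 3 the lowest in each IL group, and the regions did not overlap. The log2 fold change of IL over PL was 1.94 (SE 0.222) in Dex mice and 1.52 (SE 0.213) in saline mice, and 1.76 in saline mice without PL saline library 1.

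The enzyme gene Ndst4 had the largest coefficient of variation of the 6 genes in both IL groups, 58.9% in Dex and 48.6% in saline mice. Its level was 54.5, 90.6 and 178 CPM in IL Dex, against 1.9, 2.32 and 2.3 CPM in PL Dex. In saline mice it was 48.7, 88.1 and 137 CPM in IL, against 54.8, 4.92 and 1.69 CPM in PL. The IL libraries of number 1, 2 and 3 thus stood in the same order under both treatments, and the number is also the batch number in the labels. The Dex groups were far apart, while in saline mice PL library 1 lay above IL library 1. The log2 fold change of IL over PL was 5.64 (SE 1.57), or 49.7-fold, in Dex mice and 2.23 (SE 0.969), or 4.68-fold, in saline mice. Without PL saline library 1 the saline value was 4.78 (SE 0.857).

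Clic6 followed the same division at a lower level. Its level was 7.66, 11 and 6.55 CPM in IL Dex, against 0.544, 0.29 and 0.407 CPM in PL Dex. In saline mice it was 8.81, 8.51 and 6.49 CPM in IL, against 8.2, 0.468 and 0.483 CPM in PL. All PL libraries but PL saline library 1 held only 2 to 4 counts of this gene, and PL saline library 1 held 54. The log2 fold change of IL over PL was 4.28 (SE 1.3) in Dex mice and 1.47 (SE 0.743) in saline mice, and 4.02 (SE 0.513) in saline mice without that library.

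Every IL library lay above every PL library for 6 of 6 genes in Dex mice, where this held for 10.8% of all tested genes. In saline mice it held for 4 of 6 genes, beside 20.2% of tested genes, and for 6 of 6 without PL saline library 1, beside 26.9% of tested genes without it. Since the choice of the genes used these values, the counts are descriptive. Between IL and PL libraries of the same batch number, the difference was positive in all 3 batches under both treatments for Glp1r, Prokr2, Trpc4 and Rxrg. For Ndst4 the log2 differences in batches 1, 2 and 3 were 4.69, 5.16 and 6.14 in Dex mice and -0.17, 4.1 and 6.17 in saline mice. For Clic6 they were 3.37, 4.46 and 3.44 in Dex mice and 0.1, 3.67 and 3.26 in saline mice. Batch 1 of the saline mice was therefore the one pairing in which these genes had about equal levels in both regions.

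**Figure D2:**
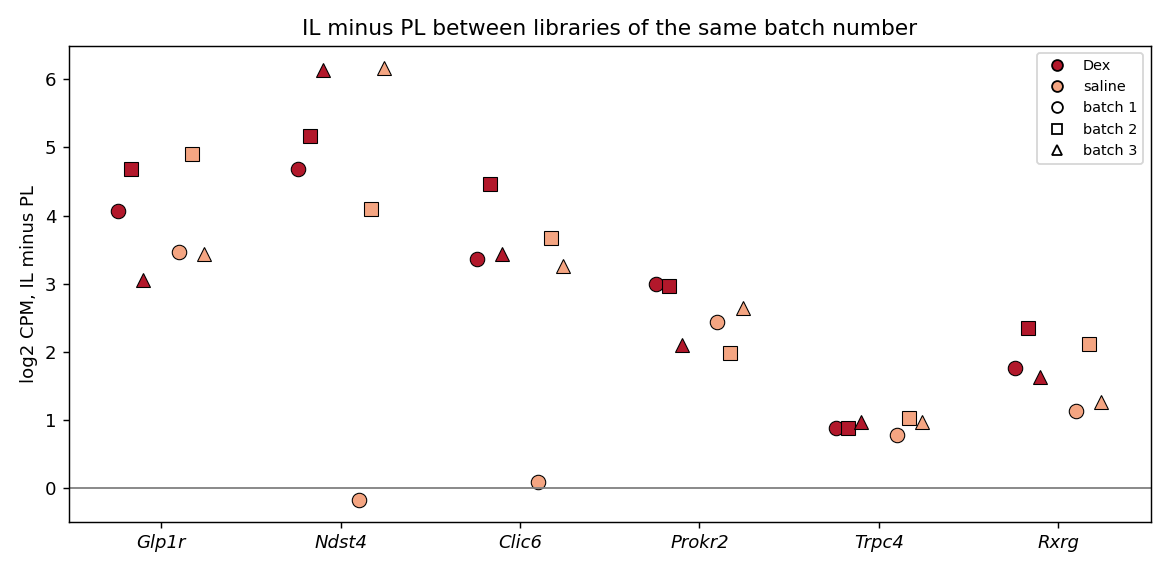
Log2 CPM in IL minus that in PL for libraries that share a batch number, for Dex and saline mice (colours) and batches 1 to 3 (shapes). The points lie above 0 except that of Ndst4 in batch 1 of the saline mice (-0.17), and Clic6 in that batch is near 0 (0.1).

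Levels of different genes were compared only after division by exon length, as CPM per kb. In IL Dex the order was Rxrg with 12.1 ± 2.47, Ndst4 with 9.19 ± 5.41, Trpc4 with 6.93 ± 0.505, Glp1r with 3.09 ± 0.922, Clic6 with 2.14 ± 0.585 and Prokr2 with 1.58 ± 0.558 CPM per kb (SD, n = 3). Neighbours in this order differed by less than the larger of their SDs, except Trpc4 against Glp1r and Glp1r against Clic6. In IL saline Rxrg had 10.3 ± 1.75 and Prokr2 had 1.18 ± 0.171 CPM per kb, an 8.74-fold span. In PL Dex Trpc4 with 3.66 ± 0.137 and Rxrg with 3.11 ± 0.498 CPM per kb came first, and the other 4 genes were at 0.106 to 0.217 CPM per kb. In PL saline Trpc4 with 3.94 ± 0.486 and Rxrg with 3.61 ± 1.07 CPM per kb again came first and did not differ beyond their spread. Ndst4 was at 1.75 ± 2.54 CPM per kb there, with an SD above its mean.

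Several of the tissue marker lists differed between the regions, and others overlapped. The sum of 7 oligodendrocyte markers was 2880 to 3670 CPM in IL libraries and 1770 to 4730 CPM in PL libraries. Sums of the astrocyte, microglia, claustrum, and vascular and meningeal lists overlapped between the regions too. The sum of 7 olfactory and piriform cortex markers was 218 to 297 CPM in IL and 143 to 181 CPM in PL. The summed level of 12 striatal medium spiny neuron markers was 1370 to 2110 CPM in IL libraries, against 309 to 939 CPM in PL libraries, and the mean of 12 of 12 was higher in IL under each treatment. Of 10 lateral septum markers, 9 had a higher mean in IL under each treatment, with sums of 142 to 238 CPM in IL and 60.5 to 101 CPM in PL. The sum of 6 ependyma markers was 8.21 to 18.5 CPM in IL and 2.93 to 4.22 CPM in PL. By edgeR's quasi-likelihood test 8 of 12 striatal markers were higher in IL under each treatment. Of 8 tested septal markers 6 were higher in Dex mice and 4 in saline mice, and of 5 tested ependyma markers 2 and 4. Over all tested genes, 3.54% were higher in IL of Dex mice and 8.7% in saline mice, and 3.8% and 9.97% were lower. The sum of 12 cortical projection neuron markers was 1500 to 2000 CPM in IL and 1970 to 2360 CPM in PL. By the same test 2 of these 12, Bcl11b and Cux1, were higher in IL under each treatment, while 5 were lower in Dex mice and 6 in saline mice. Slc17a7, the vesicular glutamate transporter of cortical projection neurons, made the largest part of the sum, with 614 to 1050 CPM in IL and 901 to 1210 CPM in PL. The sum of 8 GABA neuron markers was 807 to 1160 CPM in IL and 486 to 772 CPM in PL. Of these 8, Gad1, Gad2, Slc32a1 and Dlx1 had a higher mean in IL under each treatment, and Vip, Sst, Pvalb and Lhx6 a lower one. For choroid plexus, which expresses Clic6, the sum of 10 markers was 12.6 to 21.9 CPM in IL and 7.21 to 11 CPM in PL. The mean was higher in IL for 8 of the 10 in Dex mice and 7 in saline mice. Only 6 of the 10 were tested, of which edgeR called 1 higher in Dex mice and 2 in saline mice. Prlr, called under both treatments, averaged 4.74 CPM in IL Dex and 0.972 CPM in PL Dex, and 5.83 CPM in IL saline and 1.24 CPM in PL saline. Ttr, the most abundant transcript of this tissue, was at 0 to 2.32 CPM in IL and 0 to 1.17 CPM in PL, and Folr1 was at no more than 0.553 CPM in any library. The part of these tissues in the regional differences of the 6 genes was not tested. In bulk tissue, fewer cells of a type and less RNA per cell cannot be told apart.

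**Figure D3:**
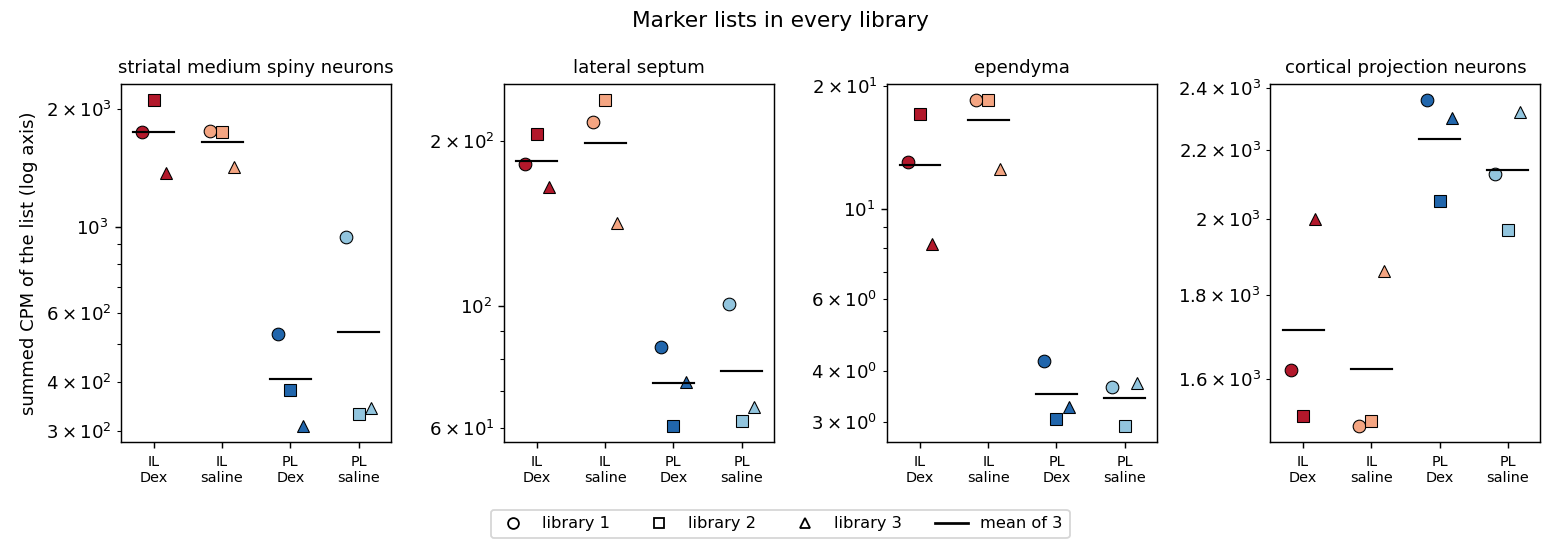
Summed CPM of 4 marker lists in each of the 12 libraries (log axes that do not start at 0), with shapes for library number and bars for means. Striatal, septal and ependymal sums are higher in every IL library than in every PL library, and PL saline library 1 has the highest striatal (939 CPM) and septal (101 CPM) sums of the PL libraries.

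No effect of Dex on the 6 genes passed the test. In IL, 0 of 6 passed the edgeR quasi-likelihood test at a Benjamini-Hochberg adjusted p of 0.05, beside 0% of all tested genes. In PL, 0 of 6 passed, beside 0.02% of tested genes. For the mean of both regions 0 of 6 passed (0.005% of tested genes), and for the difference of the Dex effect between regions 0 of 6 passed (0% of tested genes). DESeq2 called 0 of 6 in each of these 4 comparisons. At an unadjusted p under 0.05, edgeR gave 0 of 6 in IL, where 1.06% of tested genes had such a p, and 1 of 6, Clic6, in PL, where 13.9% had one. Over 19992 tested genes the Dex fold change in PL rose with the GC content of the gene (Spearman 0.529). So did that of IL over PL in saline mice (0.419), and the difference of the Dex effects fell with it (-0.471). The correlation was -0.0323 for Dex in IL and 0.0514 for IL over PL in Dex mice. The cause of this trend was not tested. No gene of the 6 had Dex and saline libraries that did not overlap, in either region, which 7.78% of tested genes had in IL and 14.4% in PL.

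Glp1r had the lowest ratio of Dex to saline in IL. Its log2 fold change there was -0.65 (SE 0.338, 95% interval -1.38 to 0.08, adjusted p = 1 by edgeR's quasi-likelihood test). Within batches 1, 2 and 3 the Dex level was 0.579, 0.66 and 0.772 times the saline level, lower in 3 of 3. In PL the value was -0.76 (SE 0.715, 95% interval -2.29 to 0.78), and -0.05 without PL saline library 1. For Prokr2 in IL the value was 0.41 (SE 0.26, 95% interval -0.13 to 0.95), with ratios of 1.34, 1.6 and 1.02 within batches. Rxrg in IL had 0.23 (SE 0.193, 95% interval -0.17 to 0.63), with ratios of 1.2, 1.2 and 1.12, higher in 3 of 3. Prokr2 and Ndst4 (1.12, 1.03 and 1.3) were also higher in 3 of 3 in IL, while Trpc4 and Clic6 had both directions. The share of all tested genes with 1 direction in 3 of 3 batches was not counted. The intervals of Glp1r, Prokr2 and Rxrg include 0, and at this depth and replication a difference was not detectable.

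The Trpc4 intervals were the tightest. Its log2 fold change of Dex over saline was -0.12 (95% interval -0.36 to 0.13) in IL and -0.1 (95% interval -0.37 to 0.16) in PL. Ndst4 and Clic6 in IL had 0.25 (95% interval -1.8 to 2.3) and 0.07 (95% interval -1.4 to 1.55), which are wide. In PL the same genes had -3.16 (SE 1.61) and -2.73 (SE 1.34), with adjusted p-values of 0.376 and 0.337 by edgeR's quasi-likelihood test. Without PL saline library 1 these became -0.6 (SE 1.12) for Ndst4 and -0.18 (SE 0.66) for Clic6, so their size rests on that library. The difference between the Dex effects in IL and in PL moved likewise, to 0.84 from 3.41 for Ndst4 and to 0.25 from 2.8 for Clic6 when the library was left out. In PL, Prokr2 had -0.02 (95% interval -0.87 to 0.82) and Rxrg had -0.19 (95% interval -0.69 to 0.3). Without PL saline library 1 the PL values were -0.14 for Prokr2, -0.01 for Trpc4 and 0.05 for Rxrg, the last with its direction turned.

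**Figure D4:**
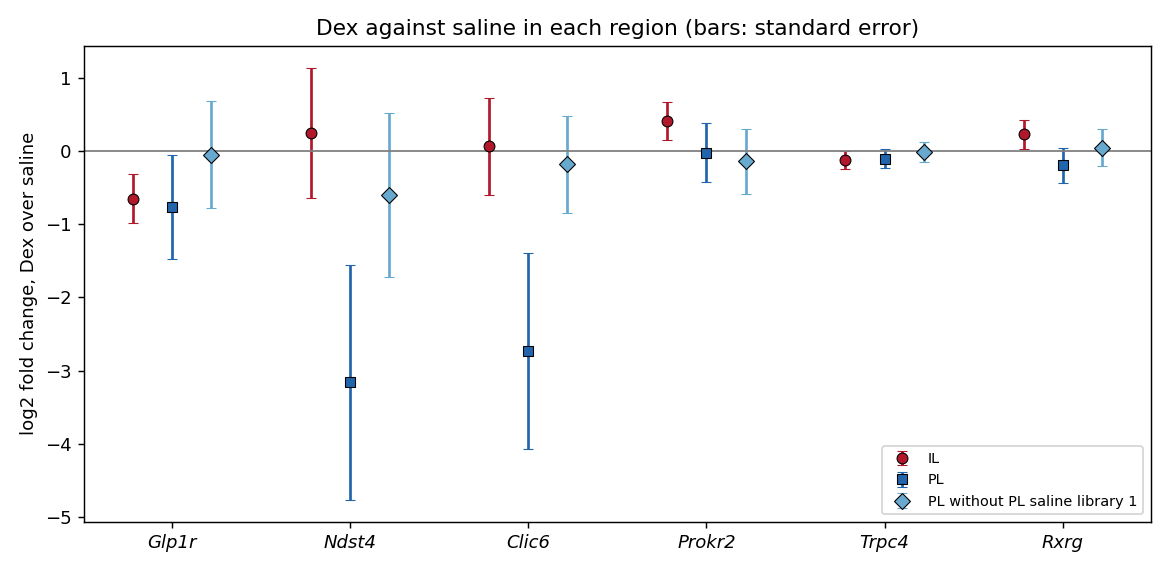
Log2 fold change of Dex over saline for the 6 genes in IL, in PL, and in PL without PL saline library 1, with bars for 1 standard error. The PL values of Ndst4 (-3.16) and Clic6 (-2.73) shrink to -0.6 and -0.18 without that library.

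Of 101 listed partners of the 6 genes in their pathways and families, 85 were tested. In Dex mice 6 were higher and 10 lower in IL than in PL by edgeR's quasi-likelihood test, which is 7.06% and 11.8% of those tested, beside 3.54% and 3.8% of all tested genes. With batch as a block 10 were higher. In saline mice 12 were higher and 18 lower, which is 14.1% and 21.2%, beside 8.7% and 9.97% of all tested genes. With a correction for GC content 6 were higher and 17 lower. The median log2 fold change of the partners was -0.03 in Dex mice and 0.07 in saline mice, beside 0.01 and 0.02 over all tested genes. The 11 genes called under both treatments, which were 68.8% of the Dex calls and 36.7% of the saline calls, had the same direction in each. Between Dex and saline, 0 of 85 were called by edgeR in IL or in PL, and DESeq2 called 1, Calcrl in PL (log2 fold change -0.92). Without PL Dex library 3, edgeR called 4 in PL, namely Calcrl, Extl3, Plcb1 and Rarg, which are named here for this call alone.

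Around Glp1r, the list of related class B receptors, ligands and modifiers had 0 higher and 3 lower of 14 tested genes in Dex mice, with 2 higher under the batch block, and 2 higher and 5 lower in saline mice. With 1 library left out, 1 to 3 were higher and 1 to 5 lower in saline mice, and 1 was lower without PL saline library 2. Gcg, whose product yields glucagon-like peptide 1, was at 0 in every IL library and at most 0.468 CPM in PL. Dpp4, the peptidase that inactivates the hormone, averaged 4.49 ± 1.81 CPM in IL Dex and 10.7 ± 2.7 CPM in PL Dex, and 4.05 ± 0.473 CPM in IL saline and 10.5 ± 0.632 CPM in PL saline (SD, n = 3). It was lower in IL by edgeR's quasi-likelihood test, with log2 fold changes of -1.3 (SE 0.283, adjusted p = 0.00613) in Dex mice and -1.38 (SE 0.265, adjusted p = 0.00142) in saline mice. Ramp3, an accessory protein of calcitonin family receptors, was lower in IL too, at -1.5 in Dex mice (adjusted p = 0.0058 by edgeR) and -1.07 in saline mice (adjusted p = 0.0161), the saline call being lost without IL saline library 2, IL saline library 3 or PL saline library 2. Adcyap1r1, the receptor for the peptide PACAP, was higher in IL of saline mice (log2 0.47, SE 0.0998, adjusted p = 0.00327 by edgeR), while in Dex mice the value was 0.33 with an adjusted p of 0.0507. The sister receptor genes Glp2r and Gipr were not called, with log2 values of -0.53 and 0.28 in Dex mice and 0.08 and 0.04 in saline mice.

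Of the prokineticin genes other than Prokr2, none passed the filter on low counts. Prok2, the ligand of this receptor, was at 0.45 to 1.07 CPM in IL Dex, 0.357 to 0.899 CPM in IL saline, 0.136 to 0.29 CPM in PL Dex and 0.117 to 1.97 CPM in PL saline. Prokr1, the sister receptor, did not exceed 0.3 CPM in any library, and Prok1 did not exceed 0.138 CPM.

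Channels of the TRPC family lay on both sides of the regional comparison. Of 18 tested channel, Gq and store-operated calcium genes, 1 was higher and 2 were lower in IL of Dex mice, with 2 higher under the batch block, and 3 were higher and 6 lower in saline mice. With 1 library left out, 0 to 1 were higher and 2 to 4 lower in Dex mice, and 2 to 3 higher and 3 to 5 lower in saline mice. Trpc5, the closest relative of Trpc4 and its partner in mixed channels, averaged 17.5 ± 1.9 CPM in IL Dex and 33.2 ± 1.05 CPM in PL Dex, and 16.2 ± 0.444 CPM in IL saline and 29 ± 2.1 CPM in PL saline (SD, n = 3). It was thus lower where Trpc4 was higher, at -0.91 in Dex mice (SE 0.135, adjusted p = 0.000289) and -0.84 in saline mice (SE 0.131, adjusted p = 0.000257) on the log2 scale by edgeR's quasi-likelihood test. Trpc6, a channel opened by diacylglycerol, was lower at -1.4 (SE 0.191, adjusted p = 0.00014 by edgeR) and -1.39 (SE 0.181, adjusted p = 5.69e-05). Trpc7, of the same subgroup, was higher in IL by 1.39 (SE 0.339, adjusted p = 0.0124 by edgeR) in Dex mice and 1.23 (SE 0.306, adjusted p = 0.00825) in saline mice, a call lost in Dex mice without IL Dex library 3 or PL Dex library 1 and in saline mice without PL saline library 2. Trpc1 was not called, with log2 values of -0.12 in Dex mice and -0.25 in saline mice. Trpc2 was at 0 in all libraries.

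**Figure D5:**
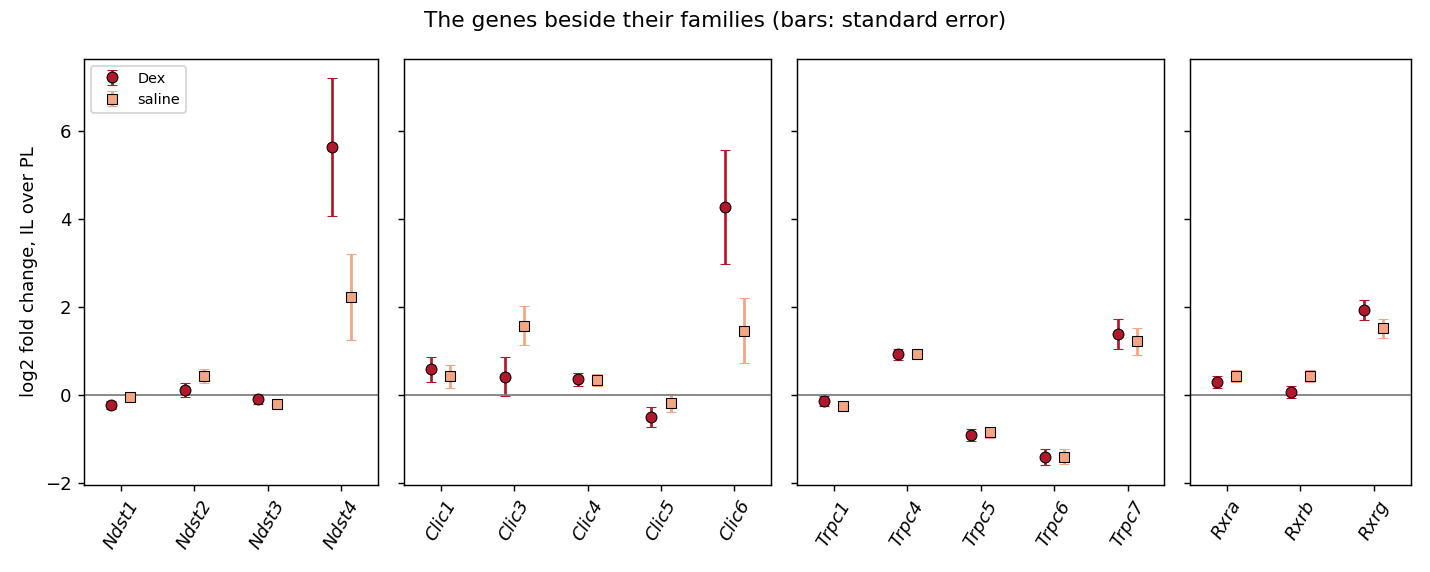
Log2 fold change of IL over PL in Dex and saline mice for Ndst4, Clic6, Trpc4 and Rxrg beside other tested genes of their families, with bars for 1 standard error. Ndst1 to Ndst3 lie near 0 while Ndst4 does not, and Trpc4 and Trpc7 lie above 0 while Trpc5 and Trpc6 lie below.

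The sister genes of Ndst4 had small regional differences. The other N-deacetylase and N-sulfotransferase genes, Ndst1, Ndst2 and Ndst3, had log2 fold changes of -0.22, 0.12 and -0.08 in Dex mice and -0.04, 0.44 and -0.2 in saline mice, none of them called by edgeR. Per kb, Ndst1 was at 20.4 CPM in IL Dex and 23.8 CPM in PL Dex, above Ndst4 in both. Of 26 tested genes of heparan sulfate synthesis and editing, 3 were higher and 3 lower in IL of Dex mice, and 2 higher and 5 lower in saline mice. With any 1 library left out, at most 2 were lower in saline mice, and 0 without IL saline library 1, while in Dex mice 1 to 4 were higher and 2 to 3 lower. Hs6st3, which adds sulfate at another position of the chain, was higher in IL by 0.88 (SE 0.167, adjusted p = 0.00215 by edgeR's quasi-likelihood test) in Dex mice and 1.08 (SE 0.164, adjusted p = 0.000199) in saline mice. Sulf2, which removes sulfate outside the cell, was lower at -0.73 (SE 0.111, adjusted p = 0.000383 by edgeR) in Dex mice and -0.4 (SE 0.109, adjusted p = 0.0148) in saline mice. Hs3st2, another sulfotransferase, was lower at -0.64 (adjusted p = 0.00582 by edgeR) in Dex mice and -0.5 (adjusted p = 0.0146) in saline mice. The saline calls of Sulf2 and Hs3st2 were lost without IL saline library 1, IL saline library 2 or PL saline library 3.

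Of the 4 other chloride intracellular channel genes, 0 were called in Dex mice and 1 was called higher in IL of saline mice. This was Clic3, with 3.48 ± 0.439 CPM in IL saline and 1.14 ± 0.231 CPM in PL saline (log2 1.58, SE 0.448, adjusted p = 0.0158 by edgeR), a call lost under the GC correction (adjusted p = 0.0684 by edgeR) and without IL saline library 1 or PL saline library 3. The log2 values in Dex mice were 0.59 for Clic1, 0.42 for Clic3, 0.36 for Clic4 and -0.49 for Clic5.

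Around Rxrg, 2 genes were higher and 2 lower in IL among 23 tested retinoid genes in Dex mice, and 4 were higher and 2 lower in saline mice, where the GC correction left 1 higher and 4 lower. With 1 library left out, 1 to 2 were higher and 0 to 2 lower in Dex mice, and 1 to 5 higher and 1 to 3 lower in saline mice. Rarb, a retinoic acid receptor that pairs with RXR proteins, averaged 26.3 ± 4.86 CPM in IL Dex and 5.47 ± 1.11 CPM in PL Dex, and 23.4 ± 1.76 CPM in IL saline and 7.15 ± 4.09 CPM in PL saline (SD, n = 3). It was higher in IL by 2.26 (SE 0.28, adjusted p = 8.01e-05) and 1.74 (SE 0.262, adjusted p = 0.000257) on the log2 scale by edgeR's quasi-likelihood test. It is also 1 of the 12 striatal markers, and PL saline library 1, with 11.8 CPM, had its highest PL level. Thrb, a thyroid hormone receptor, was lower in IL at -0.44 (adjusted p = 0.0265 by edgeR) in Dex mice and -0.5 (adjusted p = 0.00572) in saline mice. Its saline call was lost without PL saline library 2, and its Dex call without IL Dex library 2 or 3, without PL Dex library 1 or 3, and in a fit of only the compared groups. The other retinoid X receptors, Rxra and Rxrb, were both called higher in saline mice at 0.44, with adjusted p-values of 0.0263 and 0.0262 by edgeR, and the GC correction ended both calls (adjusted p = 0.404 and 0.782). Both were also lost without PL saline library 1 or 2 or IL saline library 2 or 3, and that of Rxrb without IL saline library 1. Across the 5 lists with tested genes, Dpp4, Hs6st3, Trpc5, Trpc6 and Rarb were called under both treatments in every alternative fit that was checked. There, any library left out belonged to a compared group.

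The genes whose profiles over the 12 libraries came closest to each of the 6 were found from the root-mean-square difference of centred log2 CPM. For Glp1r they were Ano2 (0.537) and Ecel1 (0.566). For Prokr2 they were Hydin (0.374), Sp8 (0.431) and Zic4 (0.46). In PL saline library 1 these were at 1.52, 3.19 and 3.8 CPM, beside means of 1.77, 3.56 and 3 CPM over the 3 PL saline libraries. For Trpc4 the nearest were Map3k19 (0.127), Kcnn3 (0.129) and Gfra1 (0.131), and for Rxrg they were Dach1 (0.158), Rasd2 (0.175) and Pde1b (0.2). Clic6 was nearest to Isl1 (0.452), Ccdc187 (0.475) and Galr1 (0.492), and Ndst4 to Isl1 (0.88), Clic6 (0.958) and Six3os1 (0.974). Isl1 averaged 4.44 CPM in IL Dex, 5.44 CPM in IL saline, 0.0907 CPM in PL Dex and 2.7 CPM in PL saline, of which PL saline library 1 held 7.74 CPM. Among the 6 genes, Trpc4 and Rxrg were the most alike (0.481) and Ndst4 and Trpc4 the least (2.1). Genes with a small range score small differences more easily. The 12 points come from 2 regions and 3 batches, so the likeness holds their differences too.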

How the data were processed

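The deposited table holds raw read counts per gene, as whole numbers, for the whole series. Per the file headers, featureCounts 2.0.1 counted read pairs over exons by gene identifier, without strand, on GRCm38 release 98. HISAT2, SAMtools 1.8, Trim Galore and bcl2fastq are named in the submitters' processing notes, which give the build as mm39, while the coordinates in the table are those of GRCm38. A further 12 count columns matched no sample here and were not used. Symbols were found for 55154 of 55421 genes.

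Tests used edgeR 4.0.16 (R 4.3.3), with filterByExpr, TMM scaling (factors 0.935 to 1.05), and a robust quasi-likelihood fit with 1 mean per group over all 12 libraries (8 residual degrees of freedom), adjusted over all 20015 genes by Benjamini-Hochberg at 0.05, two-sided. The script was tested on simulated data. CPM use TMM-scaled totals, and likeness used a prior count of 2 and genes of at least 1 mean CPM. Alternatives were DESeq2 1.42.0, DESeq2 size factors, no filter, the batch number as a block, a GC correction, only the compared groups, and each library of the compared groups left out. The 6 genes, the partner lists, the markers and the rule for naming genes (the 6 genes, the 3 nearest profiles of each, up to 4 called genes per list by smallest p, and sister genes of a family whatever their values) were chosen with earlier results of these data known. Some genes that this rule takes are not reported here. The labels give the library number as a batch, so it pairs libraries. Deviations from group means of IL Dex and IL saline libraries with the same number correlated at 0.284 to 0.337, and those of PL Dex and PL saline libraries at 0.00858 to 0.108. All 37 mitochondrial genes had 0 counts, so they gave no measure of RNA quality.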

Additional observations from a re-analysis of the deposited data

How the results depend on the processing

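None of the 6 genes was called for Dex in IL, in PL, over both regions or as a difference between regions, under any alternative. With the batch number as a replicate block, the Prokr2 log2 fold change for Dex in PL was 0.02, under the GC correction 0.1, with both 0.15 and with only the compared groups 0.01, against -0.02; the Rxrg mean over both regions was -0.06 under the GC correction and -0.07 with the block added, against 0.02. The block changed no other direction among the 6 genes and no call among them. Leaving out 1 library at a time gave log2 ranges that crossed 0 for Dex in IL (Ndst4 -0.33 to 0.66, Clic6 -0.17 to 0.24), Dex in PL (Prokr2 -0.23 to 0.42, Rxrg -0.38 to 0.05), the mean of both regions (Rxrg -0.08 to 0.14) and the difference between regions (Glp1r -0.6 to 0.46, Prokr2 -0.01 to 0.64, Trpc4 -0.11 to 0.06). A fit without PL saline library 1 and with the block was added after seeing the data, and gave 0.01 for Trpc4 in PL, -0.33 for the Glp1r difference and 31 partner genes called between regions in saline mice. Partner genes called between regions in Dex mice numbered 27 with DESeq2 and 27 with the GC correction and the block, against 16, and 8 to 16 with 1 library left out (8 without PL Dex library 1). In saline mice they numbered 30, and 37 with no low-count filter or with only the compared groups. With 1 library left out they numbered 14 to 24: 14 for PL saline library 2, 16 for IL saline library 2, 19 for IL saline library 3. For Dex against saline, 0 partners were called, 1 with DESeq2 and 0 to 4 with 1 library left out. The span of IL saline levels over the 6 genes was 11.5-fold without length correction, against 8.74-fold. The cause of these shifts was not tested. Low counts limit the PL levels of Clic6, Glp1r and Prokr2. They also limit those of Ndst4 outside PL saline library 1, with 14 to 17 counts per library in PL Dex and 42 and 14 in PL saline libraries 2 and 3.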
